A study of Homo sapiens with 3 samples.

Results

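The major histocompatibility complex (MHC) on the short arm of human chromosome 6 is described here by the replication origins called inside it. Its members were chosen by position: all EPIC2 regions whose centre, and all MACS2 summits whose base, lay on chromosome 6 of the hg19 build between 28500000 and 33450000, a stretch of 4.95 Mb. It was divided into class I with its extended part from 28500000 to 31480000 (2.98 Mb), class III from 31480000 to 32200000 (0.72 Mb) and class II from 32200000 to 33450000 (1.25 Mb). An EPIC2 region was called common when 1 or more summits of the same replicate fell in it. Replicate 1 placed 387 of its 124492 EPIC2 regions and 304 of its 101664 common regions in the complex. Replicate 2 placed 146 of 44482 EPIC2 regions and 81 of 25282 common regions there. Replicate 3 placed 251 of 78820 EPIC2 regions and 174 of 56513 common regions there. The summits inside the complex numbered 544, 165 and 399 in replicates 1, 2 and 3.

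The series holds short nascent strand sequencing (SNS-seq) of HCT116, an established human colorectal carcinoma cell line, grown untreated in RPMI medium. Its 3 replicates form 1 group and, by the study's methods, are separate experiments. SNS-seq isolates the short DNA strands that start at an origin, after λ-exonuclease has digested the DNA that lacks the RNA primer of a nascent strand. EPIC2 looks for broad enriched regions and MACS2 for narrow peaks, whose highest base is the summit. Only the call lists were analysed, so read depth is unknown, and the number of calls differs between replicates as given above.

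A replication origin is a place where DNA synthesis begins in S phase, and mammalian origins are known to concentrate in gene-rich, early replicating, open chromatin. The MHC is known for its density of immune genes. Class I carries antigen-presenting genes whose products show peptides from inside the cell to cytotoxic T cells. Class II carries the HLA-DR, HLA-DQ and HLA-DP genes, whose products show peptides to helper T cells and are normally made by professional antigen-presenting cells. Class III lies between them and carries many genes of other kinds packed closely, among them tumour necrosis factor and complement components. The positions below were not matched to genes, because an hg19 annotation was not used here.

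**Figure D1:**
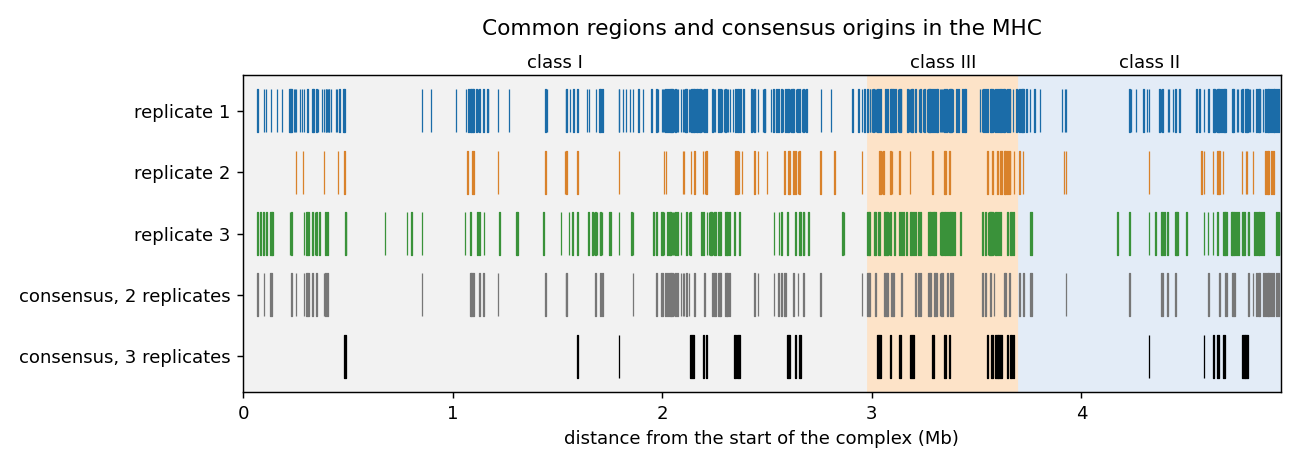
Map of the calls along the MHC. The x axis is the distance from the start of the complex in Mb, each bar of the upper 3 rows is a common region of 1 replicate, and the lower rows hold consensus origins found in 2 or in 3 replicates. Bars thinner than the drawn line appear at its width, and shading separates class I, class III and class II. The 38 consensus origins of class III stand in 0.72 Mb on both sides of a gap of 138.8 kb. The 70 of class I and the 32 of class II are gathered in parts of their classes.

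Common regions were about 2 times as dense in class III as in either neighbouring class, in every replicate. Class III held 106.9 common regions per Mb in replicate 1, 29.2 in replicate 2 and 65.3 in replicate 3, which rest on 77, 21 and 47 regions. Class I held 54.0, 13.4 and 30.9 per Mb in replicates 1, 2 and 3, from 161, 40 and 92 regions. Class II held 52.8, 16.0 and 28.0 per Mb in the same order, from 66, 20 and 35 regions. The raw densities of the classes overlap between replicates because the replicates differ in their number of calls, but within each replicate class III was the highest.

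The ratio of class III to class II was 2.03 in replicate 1 with a 95% interval of 1.44 to 2.86, 1.82 in replicate 2 with an interval of 0.940 to 3.54, and 2.33 in replicate 3 with an interval of 1.47 to 3.72. The ratio of class III to class I was 1.98 (interval 1.49 to 2.61), 2.17 (1.22 to 3.77) and 2.11 (1.46 to 3.04) in replicates 1, 2 and 3. All intervals here cover counting error only. The mean ratio was 2.06 ± 0.256 over class II and 2.09 ± 0.0992 over class I (SD, n = 3), above 1 in 3 of 3 replicates both times. An exact 2-sided sign-flip permutation test over the replicates gave p = 0.25 for each, the smallest p that 3 replicates allow, and 0.325 after Benjamini-Hochberg adjustment over 13 class comparisons. The p-values of this test therefore cannot separate the comparisons from one another where 3 of 3 replicates ran one way. The size of the contrast depended on the unit counted. With summits in place of common regions the ratios fell to 1.56 over class II and 1.47 over class I, and without the last 0.4 Mb of class II the ratio over class II rose to 4.36.

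Class I and class II could not be ordered by density. The ratio of class I to class II was 1.02, 0.839 and 1.103 in replicates 1, 2 and 3, with 95% intervals of 0.764 to 1.38, 0.479 to 1.51 and 0.740 to 1.68. Its mean was 0.988 ± 0.135 (SD, n = 3; exact permutation p = 1), with replicate 2 below 1 and the others above. Without replicate 2 the mean turned to 1.06, and counting summits it was 1.07.

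Relative to chromosomes 1 to 22 in the same replicate, the spread between replicates was small. The density of each replicate on the autosomes, 37.1, 9.21 and 20.7 common regions per Mb, was taken over the 2725 windows of 1 Mb that held a call. On that scale class III stood at 2.88, 3.17 and 3.15 (mean 3.07 ± 0.159), class I at 1.46, 1.46 and 1.49 (mean 1.47 ± 0.0190) and class II at 1.42, 1.74 and 1.35 (mean 1.503 ± 0.205; SD, n = 3). The lowest class III value, 2.88, lay above the highest value of the other classes, 1.74. The complex as a whole stood at 1.65, 1.78 and 1.70, a mean of 1.71 ± 0.0618 (SD, n = 3; exact permutation p = 0.25, 3 of 3 above 1). The rest of chromosome 6 lay below the autosomal density in all replicates, at 0.777, 0.707 and 0.735. Over the rest of its own chromosome the mean density of the complex was therefore higher still, by 2.32-fold.

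**Figure D2:**
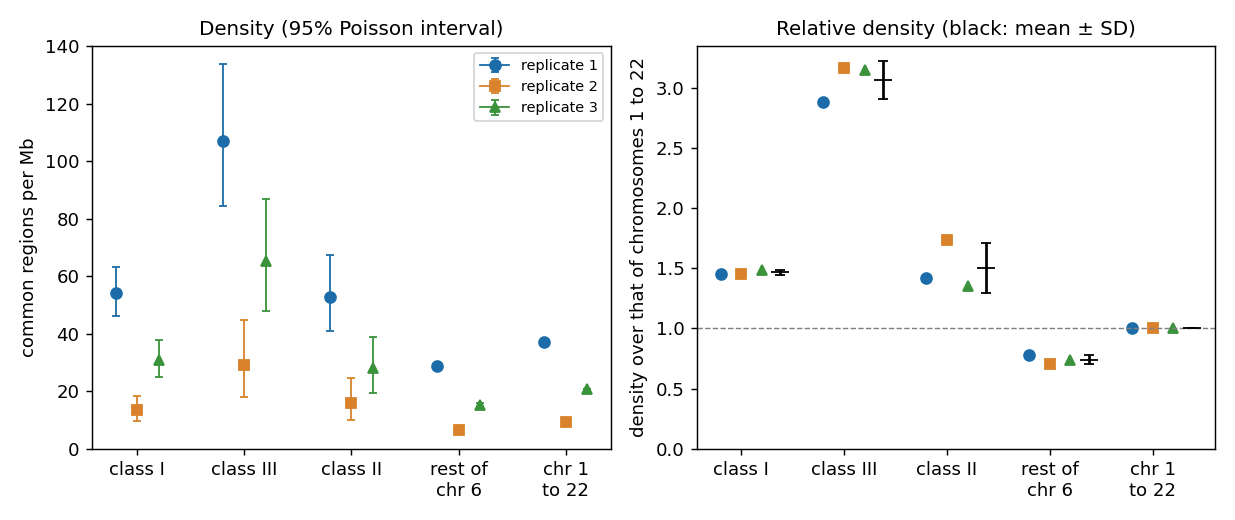
Density of common regions by class. The left panel gives common regions per Mb in each replicate with 95% Poisson intervals, and the right panel the same density divided by that of chromosomes 1 to 22 in the same replicate, with mean ± SD in black (n = 3). Class III lies between 2.88 and 3.17 on the relative scale, and no value of class I or class II exceeds 1.74.

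Class III was dense also by the other call types. EPIC2 regions with or without a summit reached 151.4, 59.7 and 95.8 per Mb in class III, against 66.1, 23.2 and 44.3 in class I and 64.8, 27.2 and 40.0 in class II, for replicates 1, 2 and 3. Summits reached 152.8, 54.2 and 93.1 per Mb in class III, against 102.7, 30.2 and 81.9 in class I and 102.4, 28.8 and 70.4 in class II. In each replicate class III was highest in both lists, by a smaller factor for summits than for regions. Across the autosomes the densities were 45.5, 16.3 and 28.9 per Mb for EPIC2 regions and 79.0, 22.8 and 59.2 for summits. Common regions were defined from both lists, so the lists are not separate support.

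Dense as it was, class III was not at the top of the genome. Among 3776 autosomal windows of 0.72 Mb, 95.5%, 93.8% and 94.7% held fewer common regions than class III in replicates 1, 2 and 3. The median window held 19, 4 and 9 common regions, and the highest held 102, 55 and 75. Class I exceeded 76.4%, 79.2% and 75.9% of 918 windows of its length, and class II 73.9%, 82.2% and 71.0% of 2178. These ranks describe where the classes stood and are not tests.

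Within class I and class II the origins were far from even, and both classes held a crowded stretch beside sparse ones. In the last 0.4 Mb of class II, taken as its extended part, from 33050001 to 33450000, common regions numbered 100 per Mb, 37.5 and 57.5 in replicates 1, 2 and 3. The remaining 0.85 Mb of class II held 30.6, 5.88 and 14.1 per Mb. Each replicate was higher in the last 0.4 Mb, and in replicate 2 its density passed that of class III (29.2 per Mb). In replicates 1 and 3 it stayed somewhat below class III (106.9 and 65.3 per Mb). In the opening 1.1 Mb of class I, the extended part, the density was 37.3, 6.36 and 22.7 per Mb, against 63.8, 17.6 and 35.6 in the remaining 1.88 Mb. After the profile of class I had been seen, the class was also parted at 30450001. The 1.03 Mb from there to the class III boundary held 85.4, 25.2 and 42.7 common regions per Mb, and the 1.95 Mb before it held 37.4, 7.18 and 24.6.

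When the complex was divided into 33 steps of 150 kb, the profiles of the replicates resembled one another without matching step by step. In the 5 steps from 30450001 to 31200000, common regions per step numbered 13 to 17 in replicate 1, 3 to 7 in replicate 2 and 1 to 14 in replicate 3. The step from 30900001 to 31050000 held 13, 3 and 1. In the 5 steps from 31500001 to 32250000 they numbered 12 to 20, 2 to 9 and 6 to 12. The step with most common regions was in class III for replicate 1, with 20 from 31800001 to 31950000, and mostly in class III for replicate 2, with 9 from 32100001 to 32250000, a step that ends inside class II. For replicate 3 it was in class I, with 14 from 30450001 to 30600000. Spearman's rho between the step counts was 0.739 for replicates 1 and 2, 0.822 for replicates 1 and 3 and 0.581 for replicates 2 and 3. The steps are neighbours on 1 chromosome, so these coefficients describe the likeness of the profiles only. For summits they were 0.681, 0.711 and 0.511.

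**Figure D3:**
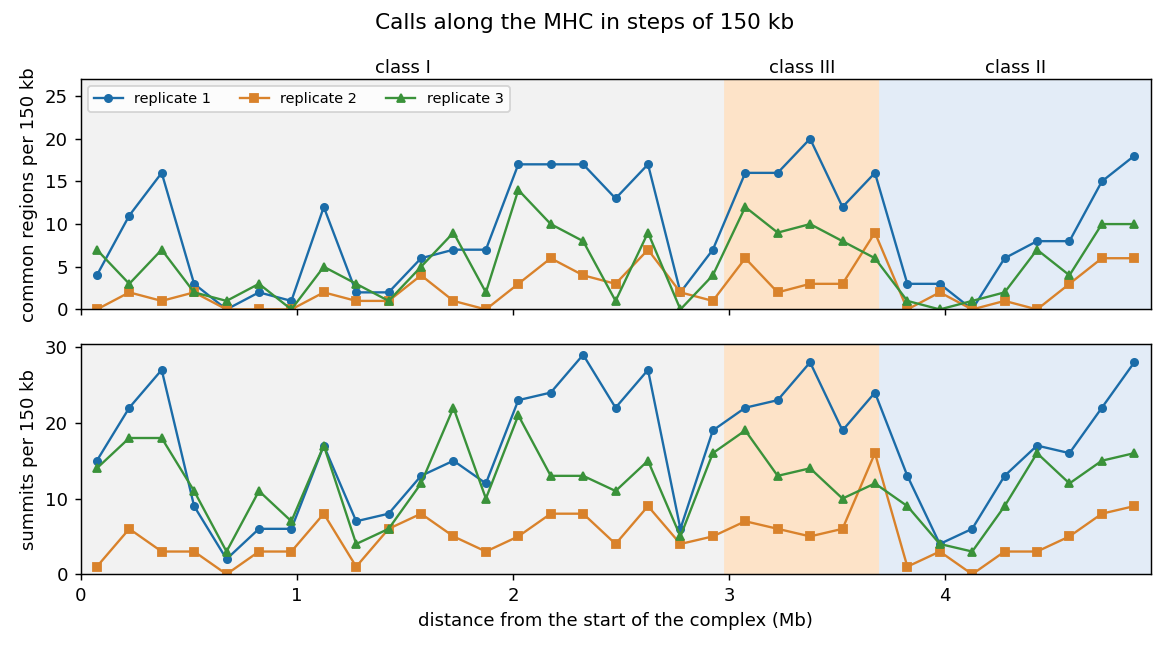
Calls along the MHC in 33 steps of 150 kb. The x axis is the distance from the start of the complex in Mb, the y axes count common regions (upper panel) and summits (lower panel) per step, and each line is 1 replicate. All replicates run low in early class II, where the step from 32550001 to 32700000 held 0, 0 and 1 common regions, and run high at the end of class II, with 18, 6 and 10 in the last step.

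Several long stretches of the complex lacked any consensus origin, meaning a place where common regions of at least 2 replicates overlapped. The longest was in class I, from 28989201 to 29352600 (363.4 kb), where replicates 1 and 2 had no common region and replicate 3 had 4. Summits were still called in it, 9, 2 and 16 in replicates 1, 2 and 3. The longest in class II ran from 32428601 to 32727400 (298.8 kb) and held 0, 0 and 1 common regions and 8, 1 and 6 summits. In class III the longest was 138.8 kb, from 31887401 to 32026200, with 6, 0 and 2 common regions in replicates 1, 2 and 3. By the definition of a gap, regions inside it do not overlap between replicates. The class I and class II gaps thus held common regions of replicate 3 only, 4 and 1. The shorter class III gap held 6 of replicate 1 and 2 of replicate 3. Mappability of reads was not tested in any of them.

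Common regions in class III were wider than those in class I in every replicate, and wider than those in class II in 2 of 3. The median width in class III was 2600 bases in replicate 1, 2600 in replicate 2 and 4800 in replicate 3. In class I it was 1800, 2500 and 2900 bases, and in class II 2100, 3000 and 3400 bases. Across the autosomes it was 1600, 2400 and 3200 bases, so that medians of all 3 classes lay above it except that of class I in replicate 3. EPIC2 places its borders on a grid of 200 bases, so the gap of 100 bases between class III and class I in replicate 2 is below 1 grid step.

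The median width of class III over class I was 1.44, 1.04 and 1.66 in replicates 1, 2 and 3, a mean ratio of 1.38 ± 0.313 (SD, n = 3; exact permutation p = 0.25). The ratio of class III to class II was 1.24, 0.867 and 1.41, a mean of 1.17 ± 0.278 (SD, n = 3; exact permutation p = 0.5), and replicate 2 ran the other way. Class I was narrower than class II in all replicates, with ratios of 0.857, 0.833 and 0.853 and a mean of 0.848 ± 0.0127 (SD, n = 3; exact permutation p = 0.25). Without the last 0.4 Mb of class II, where medians were 2500, 3000 and 3400 bases against 1600, 1200 and 3200 in the remainder, the mean ratio of class I to class II became 1.37. Replicate 2, with 5 common regions in that remainder, moved most, and in replicate 3 class I stayed narrower.

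The widest common regions of class III measured 18200, 8800 and 15000 bases in replicates 1, 2 and 3. Those of class I measured 11800, 12200 and 10800 bases and those of class II 8200, 6600 and 12400. Class III thus held the widest region of the complex in replicates 1 and 3, and class I in replicate 2. Regions with more than 1 summit made up 31.2%, 19.0% and 25.5% of common regions in class III. The shares were 24.2%, 5% and 20.7% in class I and 28.8%, 15.0% and 11.4% in class II, with class III highest each time. Across the autosomes they were 19.7%, 9.18% and 21.6%. Class I lay below these in replicates 2 and 3, and class II in replicate 3. The replicate 2 shares rest on 4 of 21 regions in class III, 2 of 40 in class I and 3 of 20 in class II.

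**Figure D4:**
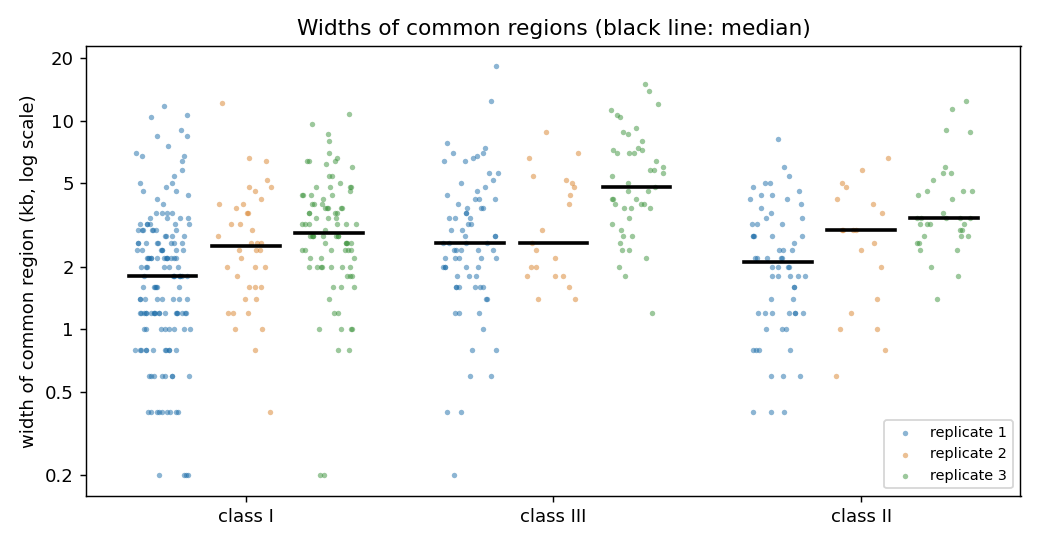
Width of each common region by class and replicate. The y axis is the width in kb on a log scale, each point is 1 common region, spread sideways for sight, and black lines are medians. The class III medians were 2600, 2600 and 4800 bases, and the distributions of the classes overlap widely in every replicate.

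Class III was also covered by common regions to a larger extent than its neighbours. Common regions covered 35.9%, 10.4% and 37.4% of its bases in replicates 1, 2 and 3. In class I they covered 12.8%, 4.01% and 10.5%, and in class II 12.8%, 4.72% and 12.0%. The autosomal cover was 7.88%, 2.52% and 8.46%. Class III lay above both neighbours within each replicate, though its value in replicate 2, the replicate with fewest calls, was below those of the other classes in replicate 1.

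EPIC2 scores were also higher in class III than in class I. As a percentile among all EPIC2 regions of the same replicate, the median common region stood at 78.2, 84.3 and 76.1 in class III, at 57.5, 60.7 and 50.6 in class I and at 72.4, 87.6 and 55.4 in class II. The lowest class III value was above the highest of class I, whereas class II overlapped class III. For all autosomal common regions the medians were 55.1, 62.4 and 54.3. What kind of score EPIC2 wrote is unknown here, so only percentiles within a replicate are compared.

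Agreement between the callers ran in opposite ways by which list was asked. Of EPIC2 regions, 70.6%, 48.8% and 68.1% held a summit in class III in replicates 1, 2 and 3 (77 of 109, 21 of 43 and 47 of 69). Over the whole genome the shares were 81.7%, 56.8% and 71.7%. In class I they were 81.7%, 58.0% and 69.7%, and in class II 81.5%, 58.8% and 70.0%, both near the genome's. Class III was the lowest class in 3 of 3 replicates, with differences of -7.57 ± 4.94 percentage points from class II and -7.27 ± 5.02 from class I (SD, n = 3; exact permutation p = 0.25 for each). The difference in replicate 3 was small, 68.1% against 70.0% and 69.7%. Among the upper 50% of EPIC2 scores the difference from class I turned to 0.154 points, and without the last 0.4 Mb of class II the difference from class II turned to 0.376 points. The difference of class I from class II was -0.304 ± 0.548 points (SD, n = 3; exact permutation p = 0.5).

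Asked from the summits, class III had the higher share. In class III 94.5%, 64.1% and 89.6% of summits fell inside an EPIC2 region of their own replicate. In class I the shares were 66.3%, 48.9% and 45.9%, in class II 66.4%, 63.9% and 44.3%, and across the autosomes 57.9%, 44.4% and 43.9%. In replicates 1 and 3 class III exceeded every share of its neighbours, and in replicate 2 it was close to class II. The common regions, which hold all these summits by definition, also covered more of class III within each replicate, as given above, and the part of that cover in the share was not tested.

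Regions of class III were found again in another replicate more often than those of class I in all replicates. A common region was taken as found when it overlapped a common region of another replicate by at least 1 base. In class III this held for 54 of 77 regions in replicate 1 (70.1%), 19 of 21 in replicate 2 (90.5%) and 39 of 47 in replicate 3 (83.0%). In class I it held for 82 of 161 (50.9%), 32 of 40 (80.0%) and 54 of 92 (58.7%). In class II it held for 37 of 66 (56.1%), 18 of 20 (90.0%) and 23 of 35 (65.7%). The shares over the whole genome were 48.4%, 79.0% and 60.9%, which class I resembled, and which class III exceeded in each replicate. High sharing was not confined to class III. The last 0.4 Mb of class II gave 70%, 93.3% and 73.9% in replicates 1, 2 and 3. It was thus close to class III in replicate 1, above it in replicate 2 and below it in replicate 3. The remaining 0.85 Mb of class II gave 34.6%, 80% and 50%. The crowded 1.03 Mb of class I next to class III gave 58.0%, 84.6% and 75%, below class III each time.

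Class III exceeded class I by 19.2, 10.5 and 24.3 percentage points, a mean of 18.0 ± 6.98 (SD, n = 3; exact permutation p = 0.25). With 1 replicate left out and sharing counted between the others, this mean was 32.5 without replicate 1, 28.6 without replicate 2 and 5.29 without replicate 3. It exceeded class II by 14.1, 0.476 and 17.3 points, a mean of 10.6 ± 8.91 (SD, n = 3; exact permutation p = 0.25). In replicate 2 there was no detectable difference from class II, and the mean difference from class II was 29.2 points without replicate 1, 21.6 without replicate 2 and -4.31 without replicate 3. Class I lay below class II by 5.13, 10 and 7.02 points, a mean difference of -7.38 ± 2.46 (SD, n = 3; exact permutation p = 0.25), which was -3.30 without replicate 1 and turned to 8.34 points without the last 0.4 Mb of class II.

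The higher sharing of class III held for overlap but not for the place of the summit. The highest summit of a common region lay within 250 bases of a summit of another replicate in 35.1%, 66.7% and 23.4% of class III regions in replicates 1, 2 and 3. The shares were 38.5%, 67.5% and 28.3% in class I and 33.3%, 70.0% and 28.6% in class II. By this measure class III was below class I in all replicates, with a mean difference of -3.04 points, and differed from class II by -2.26 points. For this measure the intervals of all classes overlap within each replicate. With an overlap of at least 50% of both regions, 28.6%, 52.4% and 31.9% of class III regions were found again, against 21.1%, 52.5% and 20.7% in class I and 28.8%, 60% and 25.7% in class II. The mean difference of class III then became -0.545 points from class II and 6.20 points from class I. Over the whole complex this share was 24.7%, 54.3% and 24.7%. Genome-wide shares are not given for either measure.

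**Figure D5:**
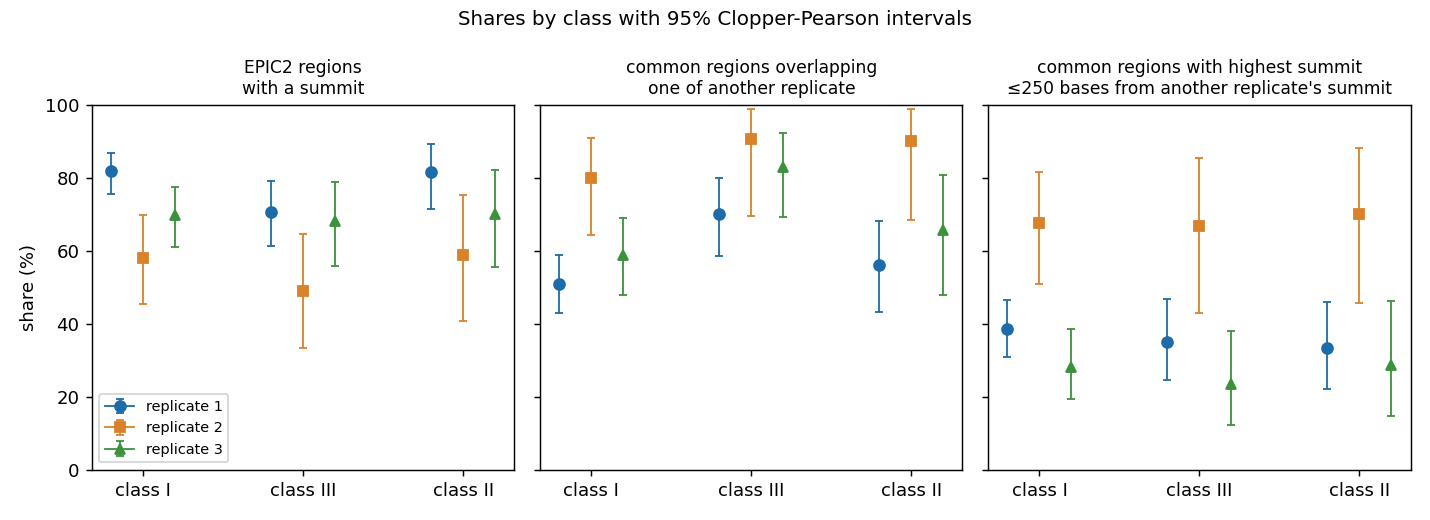
Agreement by class in each replicate, with 95% Clopper-Pearson intervals. The y axis is the share in percent of EPIC2 regions with a summit (left), of common regions overlapping a common region of another replicate (middle), and of common regions whose highest summit lies within 250 bases of another replicate's summit (right). Class III is lowest on the left, highest in the middle, and at 35.1%, 66.7% and 23.4% on the right, where the intervals of the classes overlap.

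The cover by the other replicates was also highest in class III, seen from each replicate. Common regions of the other replicates covered 42.7%, 56.1% and 38.4% of class III, seen from replicates 1, 2 and 3. They covered 14.0%, 20.1% and 14.2% of class I and 16.1%, 20.9% and 13.9% of class II. Regions that were found again had a median width of 2800, 3000 and 5600 bases in class III and 2200, 2600 and 3400 in class I. Those found in no other replicate measured 2200, 1700 and 4200 bases in class III and 1600, 1700 and 2800 in class I. Among regions no wider than the median of the complex in their replicate, 59.4% of 32, 81.8% of 11 and 83.3% of 12 class III regions were found again, against 42.0% of 100, 78.3% of 23 and 50% of 56 in class I. The same regions of class II gave 44.7% of 38, 88.9% of 9 and 66.7% of 21. Narrow regions of class III were thus above those of class I in 3 of 3 replicates and above those of class II in 2 of 3. The part of the cover in the sharing was not tested.

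The pairs of replicates did not contribute alike. Of the replicate 2 regions, 85.7% in class III, 80.0% in class I and 90.0% in class II overlapped a replicate 1 region. Of the same regions, 71.4% in class III (15 of 21), 27.5% in class I (11 of 40) and 30.0% in class II (6 of 20) overlapped a replicate 3 region. Replicate 3 regions overlapped replicate 1 regions in 83.0% of cases in class III, 53.3% in class I and 65.7% in class II. Class III was therefore the highest in both pairs that include replicate 3, and the middle one in the pair of replicates 1 and 2. The highest summits of replicates 2 and 3 rarely met: 9.52%, 5% and 15.0% of replicate 2 regions in class III, I and II had theirs within 250 bases of a replicate 3 summit.

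Merging overlapping common regions and keeping those of at least 2 replicates gave 140 consensus origins in the complex. All 140 had a region of replicate 1. Of these, 32 were present in all 3 replicates, 75 in replicates 1 and 3, 33 in replicates 1 and 2, and 0 in replicates 2 and 3 alone. Merging joined overlapping regions in chains, so an origin of all 3 replicates need not hold a base that all 3 covered. Without replicate 1 the complex held 31 origins shared by replicates 2 and 3, without replicate 3 it held 65, and without replicate 2 it held 104. The total thus leaned on replicate 1, which had most calls.

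Class III held 38 consensus origins, or 52.8 per Mb, with a median width of 7500 bases, and they covered 44.4% of the class. From centre to centre, neighbours stood a median of 12200 bases apart, against 18000 in class I, 18700 in class II and 19900 on the autosomes. Class I held 70, or 23.5 per Mb, with a median width of 4200 bases and 12.0% covered. Class II held 32, or 25.6 per Mb, with a median width of 4500 bases and 14.0% covered. The autosomes held 41995, or 15.4 per Mb, with a median width of 4000 bases and 8.33% covered. All 3 replicates contributed to 14 of the 38 in class III (36.8%), 11 of the 70 in class I (15.7%), 7 of the 32 in class II (21.9%) and 19.1% on the autosomes. Of the 7 in class II, 6 lay in its last 0.4 Mb, and of the 11 in class I, 8 lay in the 1.03 Mb next to class III.

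The origins of class III present in all replicates were ranked by the mean percentile of their highest EPIC2 score, and 3 of the 5 leading ones stood close together near the boundary with class II. The first, at chr6:32070601-32078200, stood at percentiles 98.0, 96.6 and 91.7 in replicates 1, 2 and 3 and held 2, 1 and 1 summits. Near it lay the third in rank, chr6:32087601-32101600, with percentiles 88.8, 94.4 and 95.2, and the fourth, chr6:32103401-32122800. These 3 origins lie within a span of 52.2 kb and have widths of 7600, 14000 and 19400 bases. The last of them, at percentile 99.9 in replicate 1 and 98.0 in replicate 2, stood at 79.6 in replicate 3. At the other end of the class, the second in rank, chr6:31526001-31545800, was the widest consensus origin of the complex, at 19800 bases, with percentiles of 97.5, 88.5 and 94.1 and with 3, 1 and 1 separate common regions in the replicates. The fifth, chr6:31843601-31854600, held 2 common regions in each replicate, at percentiles 89.4, 94.5 and 85.5.

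In class I the 5 leading origins had lower scores in replicate 3. The first, chr6:30857001-30870800, stood at percentiles 98.0, 91.2 and 67.9 and held 4, 2 and 1 summits. The next, chr6:30706601-30713600, stood at 97.3, 95.8 and 61.2, with 1 summit in each replicate. They were followed by chr6:31094401-31108200 at 96.0, 79.5 and 75.9 and by chr6:30844601-30852800 at 97.2, 97.1 and 42.5. These 4 lie in the crowded 1.03 Mb next to class III. The fifth, chr6:28982001-28989200, stands apart in the extended part, at percentiles 77.8, 82.3 and 71.5, and borders the longest gap of the complex. Its highest summits had −log10 q values of 18.6, 19.0 and 6.27, and it was the only consensus origin of all 3 replicates in the opening 1.1 Mb. The widest origin of class I, chr6:30634401-30650800, measured 16400 bases and lost 1 of its 3 replicates when summits were limited to q values of at most 0.01. In it the regions of replicates 1 and 3 did not overlap, and the region of replicate 2 joined them. The same was true of chr6:30844601-30852800 and chr6:28982001-28989200.

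In class II 4 of the 5 leading origins lay close together near the class's end. The first was chr6:33283001-33295800, at percentiles 95.5, 93.9 and 73.8. In it the regions of replicates 2 and 3 did not overlap, and a region of replicate 1 joined them. The widest, chr6:33265001-33279400, measured 14400 bases, stood at 95.7, 67.6 and 98.3 and was the only 1 of these 5 with its highest percentile in replicate 3. The others were chr6:33174401-33185200, at 91.0, 85.7 and 85.1, and chr6:33145401-33156000, at 94.7, 98.1 and 29.0. The fifth, chr6:32820201-32822400, differed in kind. It was narrow, at 2200 bases, lay outside the crowded end, and held 1 summit in each replicate.

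The summits of that narrow origin were at 32821985 in replicate 1, 32822041 in replicate 2 and 32821951 in replicate 3, within 90 bases of one another. Their −log10 q values were 47.4, 36.5 and 5.12, at percentiles 99.9, 98.9 and 69.5 of all summits in the replicates. The summit of replicate 1 was the highest of all its summits in class II. Such a meeting of 3 summits within 100 bases occurred 3 times in the complex, once in each class. In class III the summits lay at 31708506, 31708434 and 31708490, a range of 72 bases, with −log10 q values of 30.0, 7.07 and 5.23. They fell in a consensus origin at chr6:31707001-31710800 that 2 replicates supported with common regions. In class I they lay at 29423879, 29423839 and 29423873, a range of 40 bases, with −log10 q values of 8.67, 1.03 and 3.35. This tightest meeting was in no consensus origin, and the summit of replicate 2 was near the threshold, at percentile 1.79 of its replicate.

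The highest summits of the classes were mostly in different places. In class I replicates 1 and 2 had theirs at the same base, 30039846, with −log10 q values of 25.3 and 32.9, while that of replicate 3 was at 30547978 with 14.6. In class III they lay at 32138888, 31597422 and 31606659, with −log10 q values of 31.4, 30.6 and 17.3. In class II they lay at 32821985, 32222683 and 33013536, with 47.4, 51.3 and 10.3, and that of replicate 3 was outside its EPIC2 regions. Of these 3 classes only class I had a highest summit that 2 replicates shared.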

How the data were processed

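SNS-seq was analysed from the call lists of 3 replicates of untreated HCT116 cells. Per the labels and methods, the authors used Bowtie2 2.3.4.2 for alignment to hg19, removed duplicates with Picard 2.18.17, and called peaks with MACS2 2.1.0.20151222 at q 0.1 and EPIC2 at FDR 0.1. The deposited EPIC2 lists give a score per region, whose kind is not stated. The deposited MACS2 lists give a value per summit that was read as −log10 q (lowest 1.00). A control library is not named in the sources used here.

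Coordinates are printed 1-based. EPIC2 regions were assigned by their centre. 1 region in each of replicates 1 and 3 crossed the boundary of class I and III, and none crossed another. Densities use the 1 Mb windows with a call as the length of chromosomes. Origins were named by rule: in each class up to 5 consensus origins of all 3 replicates ranked by mean score percentile, the widest, the longest gap and triple summits within 100 bases. The highest summit of each class was chosen afterwards. Per-replicate values were compared with an exact sign-flip permutation test, with exact Poisson, conditional binomial and Clopper-Pearson intervals at 95%. The computation was tested on simulated data. Python 3.11.15, numpy 2.4.6, scipy 1.17.1 and pandas 2.3.3 were used. The members, classes and alternatives were chosen with earlier results of these data known.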

Additional observations from a re-analysis of the deposited data

How the results depend on the processing

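Of 175 values recomputed under other settings, 151 stayed as reported, 14 turned direction and 10 moved. A tested value stayed when it kept its direction, a count when it was within 1.5 times, and the place of class III when it moved by less than 1 SD of the replicates. The sign-flip test cannot give p below 0.25 under any setting. The density ratio of class I to class II (0.988) became 1.07 with summits as the unit, 1.19 without the opening 1.1 Mb of class I and 2.08 without the last 0.4 Mb of class II, and ranged from 0.931 to 1.06 when 1 replicate was left out. Leaving out that end of class II also turned the width ratio of class I to class II to 1.37, their sharing difference to 8.34 points, and the summit-holding difference to 0.376 points for class III minus II and 7.64 for class I minus II. Sharing by summits within 250 bases gave -2.26 points for class III minus II, -3.04 for class III minus I and 0.788 for class I minus II. Reciprocal overlap of 50% gave -0.545 for class III minus II. By the overlap of 1 base, class III minus II ranged from -4.31 to 29.2 and class III minus I from 5.29 to 32.5 when a replicate was left out. In the upper 50% of EPIC2 scores the summit-holding difference of class III minus I was 0.154. The consensus count (140) was 91 in the upper 50% of scores, 74 with equal numbers of common regions, 76 with reciprocal overlap, 32 with all 3 replicates required and 31 to 104 without a replicate. The place of class III, 94.7% of windows below on average, was 95.8% with all EPIC2 regions, 89.8% with summits and 96.5% in the upper 50% of scores. It was 90.8% with the boundary of class III and II moved by 0.2 Mb. Of 48 values for the named origins 8 moved, all from 3 replicates to 2. The causes were not tested. Read depth is unknown, and replicate 2, with 20 or 21 common regions in class II and III, limits the precision of every class comparison.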
